A study of Mus musculus with 6 samples.

Results

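The 9 transcripts described here encode secreted growth factors that fibroblasts can make. They are Hbegf, Areg and Ereg of the epidermal growth factor (EGF) family, Vegfa and Vegfc of the vascular endothelial growth factor (VEGF) family, Fgf2 and Fgf7 of the fibroblast growth factor (FGF) family, Hgf and the neurotrophin Bdnf. They were chosen by gene symbol, 9 of 20275 coding genes in the deposited table, and all 9 were listed there. For a gene with several RefSeq rows, the row with the highest mean over all columns was taken. RNA was measured in primary wildtype mouse embryonic fibroblasts (MEFs) of the strain C57BL/6x 129, grown from littermate embryos of 13.5 days and passaged 4 times. The cells were left untreated or given 20 ng/ml of TNFα for 1.5, 6 or 24 hr, with 1 poly-A RNA-seq library per condition and no other genotype or agent. The untreated cells also gave 1 ChIP-seq library, with 1 input, for H3K4me3, a histone mark of active and poised promoters. The labels do not say which or how many embryos gave each library, so no value here has a replicate, and no p-value is given.

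TNFα is an inflammatory cytokine that activates the transcription factor NF-κB, and stromal fibroblasts are known for supplying growth factors to the epithelial, endothelial and nerve cells around them in wound repair. HB-EGF, amphiregulin and epiregulin, the products of Hbegf, Areg and Ereg, are made as membrane-anchored precursors that ADAM proteases release to act on EGF receptors. VEGF-A drives the growth of blood vessels and VEGF-C that of lymphatic vessels. FGF7 (keratinocyte growth factor) and HGF are made by mesenchymal cells and act mainly on epithelial cells, FGF2 acts on many cell types, and BDNF acts on neurons through the receptor encoded by Ntrk2.

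Levels are given as RPKM, reads per kilobase of transcript scaled to the library's mapped reads. As the deposited values have a scale of their own, the mean of the 2 columns of a library (R1 and R2) was divided by one factor, 85.6, which brings it to the RPKM scale of the study's gene list. The whole libraries differed: the median coding gene with an average RPKM above 1 stood 0.45 log2 units higher at 1.5 hr than untreated, 0.74 lower at 6 hr (a log2 shift of -0.74) and 0.11 higher at 24 hr. Log2 ratios were therefore centred on this median, and the ratios as deposited are given beside them. What 1 read is worth could be recovered approximately from the low values. Read equivalents used the length of the longest annotated coding transcript of a gene, which need not be that of its RefSeq row. The 95% intervals below come from these read equivalents. They cover counting error only and compare libraries, not conditions.

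The upstream sequences of 4 members are shown. Fgf7 and Vegfc had the largest log2 ratios, Areg was the lowest on average and holds both a TATA box and a cyclic AMP response element, and Vegfa was the 1 member with a match to the κB consensus, the motif that NF-κB binds. Each is the 250 bases before the start of the longest coding transcript, from the mm9 genome on the gene's strand, which is the minus strand for Vegfa and the plus strand for the others, written 5′ to 3′. Capitals mark the TATA box TATAAA, the cyclic AMP response element TGACGTCA, the CCAAT box or the κB match, where present. The windows are chr2:125860144-125860393 for Fgf7, chr8:55162636-55162885 for Vegfc, chr5:91568391-91568640 for Areg and chr17:46169327-46169576 for Vegfa.
Fgf7: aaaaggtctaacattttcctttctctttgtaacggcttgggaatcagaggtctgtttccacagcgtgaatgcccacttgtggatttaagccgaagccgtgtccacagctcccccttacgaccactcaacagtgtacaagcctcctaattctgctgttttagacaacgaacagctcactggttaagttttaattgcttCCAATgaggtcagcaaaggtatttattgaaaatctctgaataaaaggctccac
Vegfc: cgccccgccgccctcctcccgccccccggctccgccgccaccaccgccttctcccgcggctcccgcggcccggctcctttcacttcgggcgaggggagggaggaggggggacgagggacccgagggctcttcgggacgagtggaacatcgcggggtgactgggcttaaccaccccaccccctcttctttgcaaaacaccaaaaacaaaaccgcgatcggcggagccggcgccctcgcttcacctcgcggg
Areg: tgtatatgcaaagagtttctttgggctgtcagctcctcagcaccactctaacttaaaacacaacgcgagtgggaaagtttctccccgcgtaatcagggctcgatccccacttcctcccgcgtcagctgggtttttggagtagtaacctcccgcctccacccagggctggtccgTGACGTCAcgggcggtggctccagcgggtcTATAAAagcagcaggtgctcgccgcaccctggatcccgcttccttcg
Vegfa: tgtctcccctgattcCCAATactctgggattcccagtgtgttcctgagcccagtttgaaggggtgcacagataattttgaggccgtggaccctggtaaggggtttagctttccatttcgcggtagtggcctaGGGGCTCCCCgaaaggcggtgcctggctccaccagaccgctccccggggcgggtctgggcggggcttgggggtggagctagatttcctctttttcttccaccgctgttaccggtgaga

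The window searched ran from 250 bases before to 50 bases after a start, on both strands. In it TATAAA was found at 2 members, at Areg from -47 to -42 and at Ereg from -27 to -22. Over all 19720 coding promoters it was found in 12.9%. TGACGTCA was found at Areg from -77 to -70 and in 2.48% of the promoters. CCAAT was found in 38.0% of the promoters and at 4 members, Vegfa, Fgf2, Fgf7 and Hgf. At Fgf7 the CCAAT box lay from -53 to -49. The AP-1 site TGANTCA was found in 6.85% of the promoters and at no member. The κB consensus was found in 9.12% of the promoters and at 1 member, Vegfa, from -118 to -109. The Vegfc window held none of these motifs and was rich in CpG, with an observed over expected ratio of 0.959 against a median of 0.600 over all promoters. The ratio was 0.797 at Areg and 0.720 at Fgf7. A match describes the letters in this window and does not show that a factor bound there.

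Only 2 of the 9 members, Vegfa and Hbegf, had an average RPKM above 1, and 7 had one above 0.1. Neither of these 2 reached a 2-fold difference from untreated, up or down, at any time after centring. Among the 6571 coding genes above 1, the background was 15.7% higher and 17.5% lower at 1.5 hr, 7.12% higher and 3.17% lower at 6 hr, and 14.1% higher and 15.2% lower at 24 hr. Of the 7 members above 0.1, 2 (Fgf7 and Vegfc) were at least 2-fold higher at 1.5 hr, against 16.2% of the 11871 coding genes above 0.1. At 6 hr 3 of 7 (Fgf7, Vegfc and Ereg) were at least 2-fold higher, against a background of 8.14%, and at 24 hr the same 3 of 7 were, against 14.2%. None of the 7 was at least 2-fold lower at any time, against backgrounds of 17.7%, 5.96% and 16.2% at the 3 times. The filter on the average is itself moved by these differences. Ereg, at 0.0496 RPKM untreated, passed it through the 1.5 and 24 hr libraries, and Fgf2, at 0.106 RPKM untreated, missed it with a 6 hr value of 0.00934. Over all 9 members, with no filter, 2, 3 and 4 were at least 2-fold higher at the 3 times in turn, and 1 (Fgf2) was at least 2-fold lower at 6 hr. These counts describe the list and are no test of it.

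Across all 9 members the median centred log2 ratio was 0.70 at 1.5 hr, 0.55 at 6 hr and 0.97 after 24 hr, where the coding genes above 0.1 had medians of 0.05, 0.01 and 0.03. The 9 were not filtered on level, and the 7 members above 0.1 had medians of 0.94, 0.86 and 0.97. As deposited the medians of all 9 were 1.15, -0.19 and 1.08, so the sign at 6 hr depended on the centring. The counting interval of the centred ratio lay above 0 at all 3 times for 4 members, Hbegf, Ereg, Vegfc and Fgf7. As deposited this was so for 2 members, Vegfc and Fgf7. By value alone, the same 4 members were higher than untreated at each time on both scales, and the intervals of Hbegf and Ereg at 6 hr as deposited included 0.

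**Figure D1:**
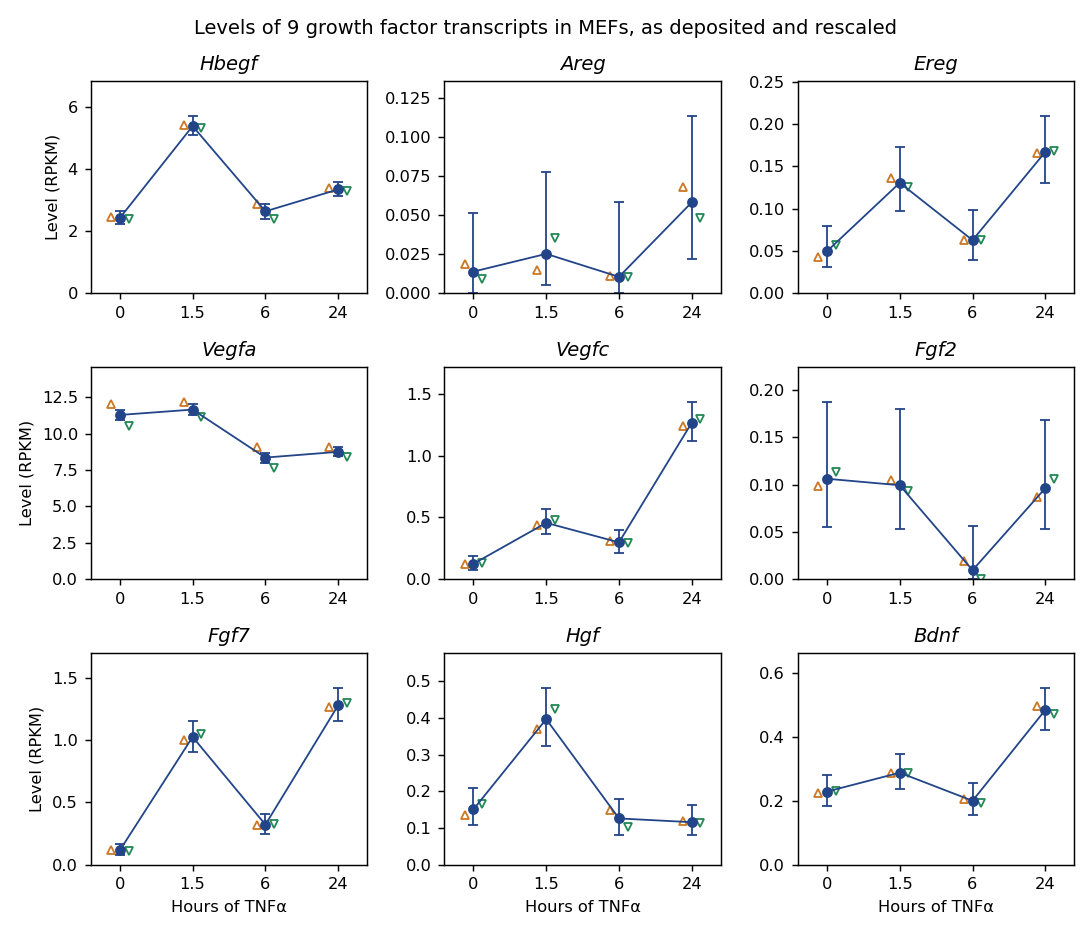
Level in RPKM (vertical axis, from 0, its own range in each panel) of each of the 9 transcripts at 0, 1.5, 6 and 24 hr of TNFα (horizontal axis). Filled circles are the library values with 95% counting intervals, and upward and downward triangles are the R1 and R2 columns; Fgf7 and Vegfc reach 1.28 and 1.27 RPKM at 24 hr from 0.116 and 0.124 untreated.

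Hbegf (NM_010415) was the most abundant EGF family ligand in these cells. Its level was 2.42 RPKM untreated, 5.38 at 1.5 hr, 2.64 at 6 hr and 3.34 after 24 hr. The 1.5 hr library was the highest, and its interval of 5.08 to 5.69 RPKM did not meet that of any other library. The centred log2 ratios to untreated were 0.70 (95% counting interval 0.55 to 0.85) at 1.5 hr, 0.86 (0.68 to 1.04) at 6 hr and 0.35 (0.19 to 0.51) after 24 hr. As deposited they were 1.15, 0.12 and 0.46, which is 2.22-fold at 1.5 hr. The 6 hr level was thus near the untreated level as deposited, but was above it relative to the median gene of its own library.

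Ereg (NM_007950) was low and was higher in every later library. Its level was 0.0496 RPKM untreated, 0.130 at 1.5 hr, 0.0627 at 6 hr and 0.167 after 24 hr, from about 19, 51, 21 and 73 read equivalents. The 1.5 and 24 hr intervals lay above the untreated one, and the 6 hr interval overlapped it. The centred log2 ratio was 0.94 (0.13 to 1.75) at 1.5 hr, 1.08 (0.11 to 2.05) at 6 hr and 1.64 (0.85 to 2.41) after 24 hr. As deposited the ratios were 1.39, 0.34 and 1.75, and the interval at 6 hr, -0.63 to 1.31, then included 0.

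Areg (NM_009704) was at the edge of detection in all 4 libraries. Its level was 0.0139 RPKM untreated, 0.0252 at 1.5 hr, 0.0105 at 6 hr and 0.0582 after 24 hr, from about 1, 3, 1 and 7 read equivalents. The 24 hr library was the highest, but all 4 intervals overlapped. The centred log2 ratio at 24 hr was 1.96 with an interval of -0.50 to 7.95, so a difference was not detectable at this depth. Ereg and Areg lie side by side on the same strand, at chr5:91503643-91522675 and chr5:91568641-91577458 in mm9, with 45965 bp and 0 genes between them, and both were highest in the 24 hr library.

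Vegfa (NM_001025257, chr17:46153942-46169326 on the minus strand in mm9) was the most abundant of the 9 in every library. Its level was 11.3 RPKM untreated, 11.7 at 1.5 hr, 8.36 at 6 hr and 8.75 after 24 hr. As deposited the 6 and 24 hr libraries were lower than the untreated and 1.5 hr libraries, with log2 ratios of -0.43 and -0.37, against 0.05 at 1.5 hr. After centring the ratios were -0.41 (-0.47 to -0.34) at 1.5 hr, 0.31 (0.23 to 0.38) at 6 hr and -0.48 (-0.55 to -0.41) after 24 hr. The sign at 1.5 and 6 hr therefore depended on the scaling, and only at 24 hr was Vegfa lower under all 4 scalings tried, by 0.32 to 0.48 on the log2 scale. The table holds 6 RefSeq rows for Vegfa, isoforms that share most of their exons, and their centred ratios at 24 hr ranged from -0.51 to -0.47.

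Vegfc (NM_009506, chr8:55162886-55271808 on the plus strand) was low in untreated cells and higher in each later library. Its level was 0.124 RPKM untreated, 0.456 at 1.5 hr, 0.298 at 6 hr and 1.27 after 24 hr, from about 21, 81, 44 and 254 read equivalents. The untreated interval, 0.0766 to 0.189 RPKM, did not meet that of any later library. The centred log2 ratio was 1.43 (0.73 to 2.20) at 1.5 hr, 2.01 (1.21 to 2.82) at 6 hr and 3.25 (2.61 to 3.97) after 24 hr, which is 2.69-, 4.02- and 9.49-fold. As deposited the ratios were 1.88, 1.27 and 3.36. The 24 hr library exceeded the 1.5 hr library by a centred 1.82 (1.45 to 2.19), so the largest value was the last.

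Fgf7 (NM_008008, chr2:125860394-125916921 on the plus strand) had the largest ratios of the 9 at each time, though their intervals overlapped those of Vegfc at all 3 times. Its level was 0.116 RPKM untreated, 1.02 at 1.5 hr, 0.322 at 6 hr and 1.28 after 24 hr, from about 28, 257, 68 and 363 read equivalents. The 1.5 and 24 hr libraries were high, the 6 hr library was between them and the untreated one, and the untreated interval met none of the others. The centred log2 ratio was 2.69 (2.12 to 3.30) at 1.5 hr, 2.21 (1.55 to 2.90) at 6 hr and 3.35 (2.79 to 3.96) after 24 hr, which is 6.46-, 4.64- and 10.2-fold. As deposited it was 3.15, 1.47 and 3.46. Fgf7 thus stood at 6.46-fold after 1.5 hr where Vegfc stood at 2.69-fold, and the 2 transcripts were at nearly the same level at 24 hr, 1.28 and 1.27 RPKM, with overlapping intervals.

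Fgf2 (NM_008006, chr3:37211441-37304299 on the plus strand) was low, with 0.106 RPKM untreated, 0.0994 at 1.5 hr, 0.00934 at 6 hr and 0.0963 after 24 hr. The 6 hr library was the lowest, with about 1 read equivalent and an R2 column listed at 0, where the others had about 12 or 13. Its centred log2 ratio at 6 hr was -2.77 with an interval of -8.07 to 0.10, and as deposited -3.51 with an interval of -8.82 to -0.64, so the result rested on the scaling. At 1.5 and 24 hr the centred ratios were -0.55 (-1.80 to 0.77) and -0.25 (-1.48 to 1.03). The Fgf2 locus overlaps Nudt6, which is transcribed from the other strand, and 4 other annotated genes, Bbs12, Cetn4, Gm12540 and Gm12541. These are overlaps of whole gene spans, and whether exons overlap was not checked. The sources used here do not say whether counting used the strand. Reads of a neighbour in any shared exon could therefore not be told apart from those of Fgf2. The same limits hold for Fgf7 and 4930525F21Rik, whose spans overlap.

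Hgf (NM_010427, chr5:16059368-16125257 on the plus strand) was highest in the 1.5 hr library. Its level was 0.151 RPKM untreated, 0.397 at 1.5 hr, 0.126 at 6 hr and 0.116 after 24 hr, from about 38, 103, 27 and 34 read equivalents. As deposited, only the 1.5 hr interval, 0.324 to 0.482 RPKM, stood apart from the rest. The centred log2 ratio was 0.94 (0.38 to 1.50) at 1.5 hr, 0.48 (-0.33 to 1.19) at 6 hr and -0.49 (-1.22 to 0.20) after 24 hr, against 1.40, -0.26 and -0.38 as deposited. From 1.5 to 6 hr the centred log2 ratio was -0.46 (-1.16 to 0.13), an interval that included 0. From 1.5 to 24 hr Hgf was lower by a centred log2 ratio of -1.43 (-2.04 to -0.86).

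Bdnf (NM_001048142, chr2:109514857-109567204 on the plus strand) was higher in the 24 hr library than in the other 3. Its level was 0.229 RPKM untreated, 0.288 at 1.5 hr, 0.20 at 6 hr and 0.485 after 24 hr, from about 88, 116, 68 and 220 read equivalents. The 24 hr interval, 0.423 to 0.554 RPKM, lay above the others, which overlapped. The centred log2 ratio at 24 hr was 0.97 (0.61 to 1.35) and as deposited 1.08, just inside and just outside 2-fold. At 1.5 hr it was -0.12 (-0.53 to 0.30) and at 6 hr 0.55 (0.08 to 1.03), and both changed sign as deposited, to 0.33 and -0.19. The other 3 RefSeq rows of Bdnf gave centred ratios of 1.07 to 1.08 at 24 hr.

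**Figure D2:**
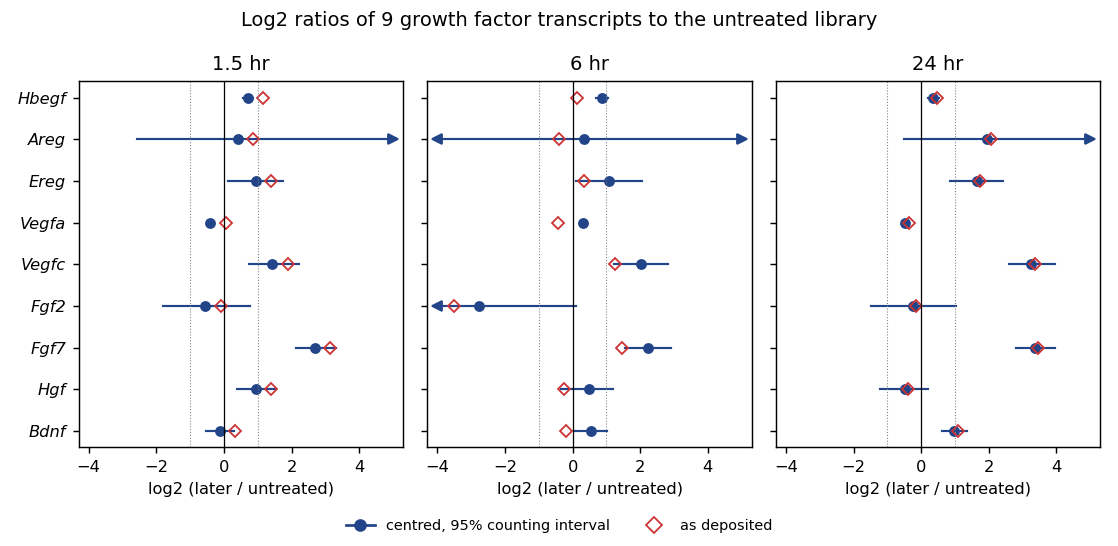
Log2 ratio of each later library to the untreated one (horizontal axis) for the 9 transcripts (vertical axis) at 1.5, 6 and 24 hr. Circles with lines are centred ratios with 95% counting intervals, cut with an arrowhead where they leave the panel, diamonds are ratios as deposited and dotted lines mark 2-fold; Fgf7 and Vegfc lie to the right of the line for 2-fold at all 3 times on both scales.

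Set in order within a library, Vegfa and then Hbegf led in all 4, and their intervals were apart from each other and from the rest. In untreated cells the order went on with Bdnf at 0.229, Hgf at 0.151, Vegfc at 0.124, Fgf7 at 0.116 and Fgf2 at 0.106 RPKM, and each of these overlapped its neighbour, as did Ereg and Areg below them. At 1.5 hr Fgf7 came next and stood apart from Vegfc and Hgf, which overlapped. At 24 hr Fgf7 and Vegfc came next, overlapped each other and stood apart from Bdnf below them. Hgf went from place 4 of 9 in untreated cells to place 7 at 24 hr.

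For the 2 members with an average RPKM above 1, the coding genes with the nearest pattern over the 3 centred ratios were found among the other 6570 genes above 1. For Hbegf these were Ezr, at a Euclidean distance of 0.06 log2 units, and Tpbg, at 0.14. Ezr had 2.22 RPKM untreated, 4.92 at 1.5 hr, 2.35 at 6 hr and 3.16 after 24 hr. For Vegfa they were Tnfrsf14 at 0.03 and Pcid2 at 0.04. Within a distance of 0.3 there were 31 of the 6570 genes for Hbegf and 82 for Vegfa. How many neighbours other genes have within this distance was not measured. All distances share the 4 libraries and are a description.

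The targets of TNFα gave a check of the treatment. Nfkbia, which encodes the NF-κB inhibitor IκBα, had 3.73 RPKM untreated, 84.2 at 1.5 hr, 31.0 at 6 hr and 67.4 after 24 hr. Tnfaip3, which encodes the feedback inhibitor A20, had 0.0833, 4.67, 0.827 and 1.74. All 10 listed NF-κB targets were at least 2-fold higher at 1.5 and 6 hr after centring, and 8 of 10 at 24 hr.

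The receptors of the 9 ligands differed widely in level. Here and for the lists that follow, the genes of a list with an average RPKM above 1 were compared with untreated after centring. By that construction the median of all 6571 such coding genes is 0, and 20% of them were 2-fold higher at some time and 21% were 2-fold lower. A gene is called tested below if it passed this filter. Egfr, the receptor for HB-EGF, amphiregulin and epiregulin, had 1.52 RPKM untreated, 2.55 at 1.5 hr, 0.618 at 6 hr and 1.53 after 24 hr. Erbb2, its partner, was the 1 of 2 tested EGF receptors that was at least 2-fold lower, with 2.98, 1.43, 1.61 and 0.985 RPKM and centred log2 ratios of -1.51, -0.14 and -1.71. Erbb4 did not exceed 0.00648 RPKM. Of the 5 VEGF receptors, 3 were tested, with median centred log2 ratios of 0.61, 1.29 and 0.56 at 1.5, 6 and 24 hr, and 2 reached 2-fold higher at some time. Flt1, which encodes VEGFR1, had 1.42, 4.10, 2.07 and 2.59 RPKM with centred log2 ratios of 1.08, 1.29 and 0.76. Nrp1, a VEGF co-receptor, had 9.20, 10.2, 21.4 and 14.6 RPKM and a centred log2 ratio of 1.96 at 6 hr, its only time past 2-fold. The columns of the 6 hr library were far apart for Nrp1, with 10.4 RPKM in R1 and 32.3 in R2, or centred ratios of 0.99 and 2.49. For Flt1 they were 1.22 and 2.92 RPKM, or 0.58 and 1.73. With R1 alone, a choice made after seeing the data, 1 of the 3 VEGF receptors reached 2-fold higher and the median at 6 hr was 0.58. Kdr, which encodes VEGFR2, did not exceed 0.0454 RPKM, and Flt4, which encodes the VEGF-C receptor VEGFR3, was between 0.245 and 0.444.

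Of the 5 FGF receptors, 2 were tested and neither was 2-fold higher or lower. Fgfr1 was at 8.27 RPKM untreated and 11.6 after 24 hr. Fgfr2, one splice form of which binds FGF7, was at 0.421 and 0.287. Met, the HGF receptor, had 0.0428 RPKM untreated, 0.105 at 1.5 hr, 0.0390 at 6 hr and 0.111 after 24 hr. Ntrk2, the BDNF receptor, did not exceed 0.00493 RPKM and was listed at 0 at 24 hr. Ngfr, the low-affinity neurotrophin receptor, was between 0.116 and 0.501.

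The genes that process or restrain these ligands were described from a list for each pathway, chosen with earlier results of these data known. Of the 6 sheddases and iRhoms, all 6 were tested, with medians of 0.72, 0.29 and 0.44. Adam17, which releases HB-EGF and amphiregulin, had 0.980 RPKM untreated and 2.26 at 1.5 hr, with a centred log2 ratio of 0.75. Rhbdf2 (iRhom2), which brings ADAM17 to the cell surface, was at least 2-fold higher only at 6 hr, with 1.36 after centring and 0.62 as deposited, and Rhbdf1 (iRhom1) at least 2-fold lower only at 24 hr, with -1.23.

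A list of 9 genes covered the HGF receptor, its activators and inhibitors, and the related ligand gene Mst1 with its receptor gene Mst1r. The 2 tested were both at least 2-fold higher at 1.5 and 24 hr, with medians of 1.36, 0.63 and 1.16. They were Plau (1.89, 7.01, 1.99 and 4.49 RPKM) and Plat (2.08, 6.96, 1.69 and 5.08 RPKM), the plasminogen activators. At an average RPKM above 0.1, 4 passed. Of these, Plau, Plat and Spint2 were 2-fold higher at 1.5 and 24 hr, and Mst1 was 2-fold lower, with -3.37 and -3.11. Over all coding genes above 0.1, 16.2% and 14.2% were higher and 17.7% and 16.2% lower. Hgfac, which encodes an HGF activator, missed this filter and had centred log2 ratios of -3.22, 0.56 and -1.97. Of the 8 feedback inhibitors of growth factor signalling, 5 were tested, with medians of 0.21, 0.19 and 0.54, and 2 were at least 2-fold higher, Errfi1, with centred log2 ratios of 2.25, 1.38 and 1.74, and Lrig1, with 1.58, 0.74 and 1.23. Both are known as inhibitors of EGF receptor signalling.

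Among the other ligands of the same families few were expressed. Of 8 other EGF family ligands 1, Nrg1, was tested, and of 3 other VEGF ligands 1, Vegfb. Neither was 2-fold higher or lower. None of the 20 other FGF ligands had an average RPKM above 1, and 5 were listed at 0 in all libraries. Of 12 further growth factors of fibroblasts, 5 were tested, with medians of -0.43, -0.65 and -0.61. Of these, none reached 2-fold higher and 3 reached 2-fold lower at some time. These were Mdk (3.48 RPKM untreated and 0.875 after 24 hr), Ptn (19.2 and 2.09) and Gas6 (6.97 untreated and 2.06 at 6 hr). Gas6 stood at a centred log2 ratio of -1.01 at 6 hr, just past 2-fold, with -0.95 in R1 and -1.09 in R2. At the lower filter, an average RPKM above 0.1, 10 of the 12 further growth factors passed. At 1.5, 6 and 24 hr, 1, 1 and 2 of these 10 were 2-fold higher and 1, 2 and 3 were 2-fold lower. The highest was Pdgfb, with centred log2 ratios of 2.99, 2.15 and 1.63. Of the 20 other FGF ligands 4 passed, with 1, 1 and 2 higher and 1, 1 and 1 lower. The highest of these was Fgf9, with centred log2 ratios of 1.74, 5.16 and 3.24 from 0.0147 RPKM untreated. The lowest was Fgf11, with -3.03, -2.71 and -2.64. Over all coding genes above 0.1, 16.2%, 8.14% and 14.2% were higher and 17.7%, 5.96% and 16.2% lower.

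The labelled cell type was checked with its markers, and markers of other cells were looked up. The 9 fibroblast markers summed to 948 RPKM untreated, 877 at 1.5 hr, 451 at 6 hr and 559 after 24 hr, and none was at 0. Col1a1 was the largest part of the sum untreated, with 514 RPKM against 142 at 24 hr. At 24 hr 3 of the 8 tested were at least 2-fold lower and 2 at least 2-fold higher, Vim (60.4 and 170 RPKM) and Dcn (2.68 and 7.63). The 6 macrophage markers summed to 37.8, 186, 35.4 and 90.2 RPKM, and Lyz2 made up most of this, with 26.4 untreated, 171 at 1.5 hr, 31.5 at 6 hr and 84.0 after 24 hr. None of the 6 was at 0, 3 were above 1 in each library, and the defining marker Csf1r went from 3.44 RPKM untreated to 3.35, 1.05 and 1.45. As deposited, the macrophage sum was highest in the 1.5 and 24 hr libraries, as were Fgf7, Vegfc and Ereg. The shape of the sum was that of Lyz2. After centring, Vegfc and Ereg were by value higher at 6 hr than at 1.5 hr. Their log2 ratios were 2.01 against 1.43 and 1.08 against 0.94, and the intervals of these differences included 0. Fgf7 was still lower at 6 hr, with 2.21 against 2.69. Of the 3 tested macrophage markers, only Lyz2 rose past 2-fold by 24 hr, with a centred log2 ratio of 1.56. The other 2, Cd68 and Csf1r, fell past 2-fold, with -1.07 and -1.36. The part of macrophage RNA in the values of Fgf7, Vegfc and Ereg was not tested. In a bulk library, fewer cells of a type and less RNA per cell cannot be told apart. The 5 endothelial markers summed to at most 0.0588 RPKM and the 6 epithelial markers to at most 0.594, nearly all of it Krt18, with Epcam listed at 0 in all 4.

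H3K4me3 in untreated cells marked 6 of the 9 genes. A peak lay within 1 kb of a coding start at Hbegf, Areg, Ereg, Vegfa, Vegfc and Bdnf, against a background of 54.2% of 19724 coding genes with an annotated start. No such peak was listed for Fgf2, Fgf7 and Hgf. Their nearest peaks were 33777, 116627 and 616621 bp from the start of the longest coding transcript. The nearest peak to Fgf2 held the starts of Bbs12 and Cetn4 and of a noncoding Fgf2 transcript. Fgf7, the transcript with the largest ratios to untreated, thus had no peak at its start before treatment, and Vegfc, the next, had one.

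**Figure D3:**
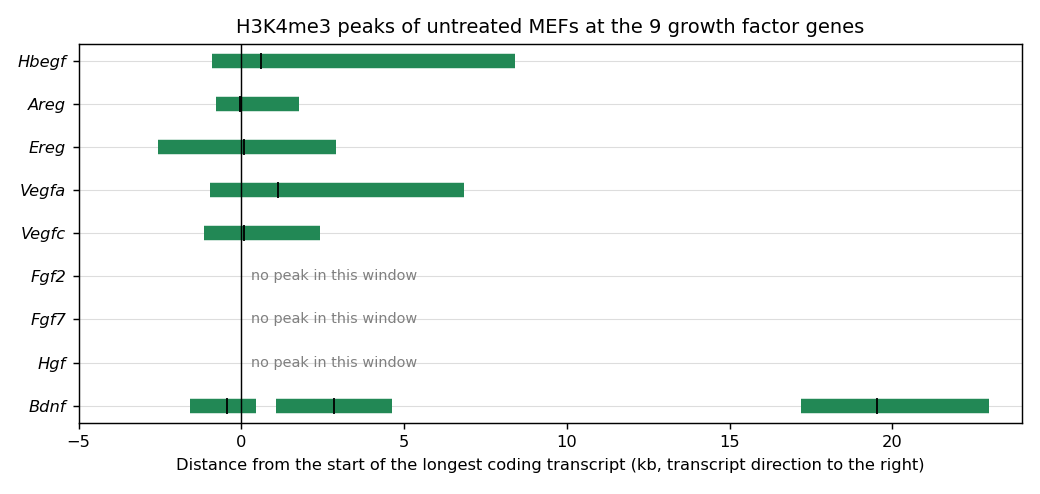
H3K4me3 peaks (bars) with their summits (ticks) in untreated MEFs, by distance in kb from the start of the longest coding transcript (horizontal axis, direction of transcription to the right) for the 9 genes (vertical axis). The Hbegf peak reaches 8.41 kb past the start, Bdnf has 3 peaks, and Fgf2, Fgf7 and Hgf have none in the window.

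The peaks differed in width and depth. The Hbegf peak spanned 9301 bp with 2208 tags and a fold enrichment of 56.9 over the input, and was longer than 98.96% of the 11157 peaks. The gene lies at chr18:36664583-36675459 in mm9. The Vegfa peak spanned 7806 bp with 3241 tags, at a fold enrichment of 23.8, and covered all 4 coding starts. The Ereg peak spanned 5479 bp with 1378 tags, at 60.3, and was longer than 90.3% of the peaks. The Vegfc peak spanned 3577 bp with 1164 tags, at 40.5. The Areg peak was the smallest of the single ones, with 2550 bp and 312 tags, at 23.3, and 7.62% of peaks had fewer tags. Bdnf had 3 peaks of 304, 755 and 2318 tags, and all 7 of its coding starts had one. The deposited peaks have no fold enrichment under 20, so a weaker mark could not be seen in the list.

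The share of coding genes with a peak depends on the level of the gene, so the members were set beside genes of their own level in the untreated library. Areg and Ereg fell in the range above 0.01 and up to 0.05 RPKM, where 21.4% of 1629 genes had a peak, and both had one. Of the 4 members above 0.05 and up to 0.2 RPKM, 1 (Vegfc) had a peak, against 52.1% of 2201 genes. Bdnf, Hbegf and Vegfa, in the 3 higher ranges, all had one, against 79.1%, 90.2% and 93.6%. With 1 to 4 members in a range these are descriptions of single genes.

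**Figure D4:**
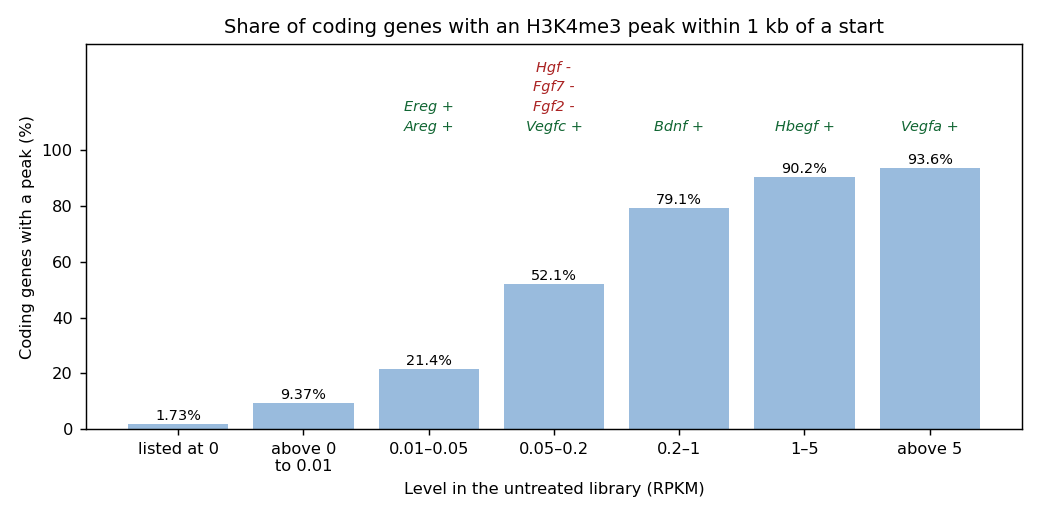
Percent of coding genes with an H3K4me3 peak within 1 kb of a start (vertical axis) by level in the untreated library in RPKM (horizontal axis). Names above the bars place the 9 members, with + for a peak and - for none; Areg and Ereg have a peak where 21.4% of genes do, and Fgf2, Fgf7 and Hgf lack one where 52.1% of genes have it.

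The 3′ UTRs of the members were searched for the AU-rich pentamer ATTTA, known from short-lived mRNAs of cytokines and growth factors, in the longest coding transcript of the mm9 annotation. It was found in 8 of 9 members, against 63.5% of 17766 coding genes with a 3′ UTR of at least 50 bases, and all 8 had more per kb than the median gene, which had 1.11. The density was 15.8 per kb in Areg (4 in 253 bases), 6.16 in Fgf7 (10 in 1624), 5.18 in Vegfc, 4.83 in Vegfa, 4.48 in Hgf, 2.80 in Bdnf, 2.75 in Hbegf and 2.57 in Ereg (9 in 3504). The annotated 3′ UTR of Fgf2 was 271 bases long and held none. A longer AU-rich nonamer was found in 4 members, Areg, Ereg, Vegfa and Fgf7, against 14.4% of the genes. Its first site is shown with 8 bases on each side, with the nonamer in capitals, because it sets these 4 apart from the other 5.
Areg: taaataatTTATTTAATatttaagt
Ereg: gtcagtttTTATTTATTttttgtta
Vegfa: tacggtacTTATTTAATagcccttt
Fgf7: agtttatgTTATTTATAaagaaaaa

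**Figure D5:**
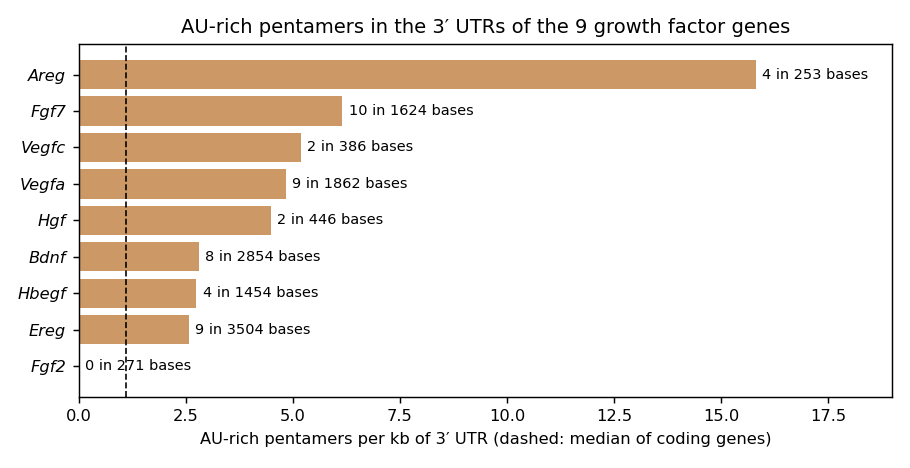
AU-rich pentamers per kb of annotated 3′ UTR (horizontal axis) in the 9 members (vertical axis), with the number of pentamers and the length beside each bar and the median of coding genes, 1.11, as a dashed line. All members but Fgf2 lie to the right of the line, and Areg is the highest with 15.8.

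The 4 members with the nonamer did not share a time course. Fgf7 and Ereg were highest at 24 hr and also above untreated at 1.5 hr, Vegfa was lower at 24 hr, and Areg was too low to place. The sites describe the sequence, and transcript stability was not measured in these libraries.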

How the data were processed

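RNA was measured by paired-end, strand-marking poly-A RNA-seq in 4 MEF libraries, and H3K4me3 by ChIP-seq in 1 library with 1 input. The authors mapped reads to mm9 with TopHat and Bowtie (per the labels) and computed RPKM for each RefSeq transcript by a script of their own; the deposited table has 27794 rows, 25684 of them coding, and 2 columns (R1, R2) per library whose meaning is not given in the sources used here. Columns carry library codes, tied to times by the study's supplementary list; the 24 hr label holds a ChIP protocol in one field, but its title and treatment are those of RNA-seq. The deposited peak list, called by the authors with MACS, gives tag counts, a score from the p-value, a fold enrichment (ratio to input) and an FDR in percent. No column of another sample was used.

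R1 and R2 were averaged, not taken as replicates, and divided by 85.6, the median of 5166 deposited values over the RPKM of the study's gene list. No pseudocount was added, and a transcript was called at 2-fold with an average RPKM above 1. The value of 1 read was estimated from 7776 genes with 1 row and 1 transcript, where 62.8% to 69.8% of values under 10 reads came within 0.1 of a whole number; the recovery is therefore approximate. Read equivalents gave exact Poisson and Clopper-Pearson intervals at 95%. With 1 library per time no test across samples was possible. Members and lists were chosen with earlier results of these data known. Genes outside the 9 were named by rule: receptors of the members, genes of the related lists with an average RPKM above 1 and a 2-fold change, the 2 nearest patterns, and Nfkbia and Tnfaip3. A few others, among them Adam17, Nrg1, Vegfb and the cell type markers, were named outside that rule. Steps were tested on simulated data. Some items are not reported here. Sequences were read from the mm9 genome and GENCODE annotation. Python 3.11.15, numpy 2.4.6, pandas 2.3.3, scipy 1.17.1 and matplotlib 3.10.9 were used.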

Additional observations from a re-analysis of the deposited data

Results flagged for a closer look

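Vegfa stood on opposite sides of the untreated library at different times after centring. Its centred log2 ratio was -0.41 at 1.5 hr, 0.31 at 6 hr and -0.48 after 24 hr, and the 95% counting intervals of these lay below, above and below 0. With 1 library per time the difference between times was not tested. As deposited the order was another one, with 0.05 at 1.5 hr, -0.43 at 6 hr and -0.37 after 24 hr, so the sign at 1.5 and at 6 hr depends on the scaling.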

How the results depend on the processing

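With 1 library per time, no replicate could be left out. No paired analysis was possible because each time has 1 library and the groups share only the number 1. The count of members at least 2-fold higher was 0 of 2 tested at each time. It became 1 (Hbegf) at 1.5 hr as deposited and 1 (Hbegf) at 6 hr scaled to the sum. With a 1.5-fold threshold it was 1 (Hbegf) at 1.5 and at 6 hr. With the rows of a symbol summed, 3 members were tested, and the count was 1 (Bdnf) at 24 hr. Bdnf has 4 RefSeq rows, and reads of exons they share may then count more than 1 time. With an average RPKM above 0.1 the count was 2, 3 and 3 at 1.5, 6 and 24 hr, and with no filter 2, 3 and 4. With no filter 1 member (Fgf2) was at least 2-fold lower at 6 hr. The members' median log2 ratio of 0.70 at 1.5 hr became 1.15 as deposited, 0.89 scaled to the sum, 0.77 with a trimmed mean, 0.68 with summed rows, 0.19 and -0.23 with pseudocounts of 0.1 and 1 RPKM, and 0.15 over the 2 members above 1. At 6 hr 0.55 became -0.19 as deposited. At 24 hr 0.97 became 1.08, 1.13, 1.04 and 1.04 under the same 4 settings, 0.37 and 0.073 with the pseudocounts, and -0.063 over the 2 members above 1. Without Fgf2 and Areg, a choice made after seeing the data, the medians were 0.94, 0.86 and 0.97. Scalings, filters and thresholds move these values by their construction; why the 6 hr library has lower values as a whole was not tested. The pseudocount of 1 RPKM exceeds the level of most members in most libraries and pulls their ratios to 0 before centring; with it the ratio of Areg at 24 hr went from 1.96 to -0.018 and that of Fgf2 at 6 hr from -2.77 to 0.35. For the R2 columns alone, Fgf2 at 6 hr is listed at 0 and has no log2 ratio. Of the 27 ratios of a member at a time, 21 kept their sign under the 4 scalings; the other 6 were those of Vegfa and Bdnf at 1.5 and 6 hr and of Areg and Hgf at 6 hr. The 6 members with a peak remained 6 with a peak over the start or within 5 kb, and were 4 at a fold enrichment of at least 40. Depth limits Areg and Fgf2, with at most 7 and 13 read equivalents in a library.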
